A study of Mus musculus with 2 samples.

Results

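The genes described here are the 8 that make up the core of MHC class II antigen presentation in the mouse, namely Cd74, H2-Aa, H2-Ab1, H2-Eb1, H2-DMa, H2-DMb1, H2-DMb2 and Ciita. They were taken by symbol from a list of known pathway genes, and all 8 were found among the 20330 gene identifiers measured. RNA sequencing had been done on adipose tissue macrophages (ATM) sorted by FACS as F4/80 and CD11b positive cells from visceral fat of C57BL/6 mice on a high-fat diet for 12 weeks, a diet given from 4 weeks of age. WT mice were hMRP8cre-;Hif-1αfl/fl;ApoE-/- and KO mice were hMRP8cre+;Hif-1αfl/fl;ApoE-/-, so both groups carried floxed Hif-1α alleles and were ApoE-/- by label, and only the KO carried Cre. Cre was driven by the human MRP8 promoter, which is active in myeloid cells, and neither the extent of deletion in the sorted cells nor the number of animals behind a library was given. Each genotype was represented by 1 library. The differences between them therefore cannot be set against a spread between replicates, and they carry no p-value.

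MHC class II molecules are heterodimers of an α and a β chain that carry peptides from endocytosed protein to the cell surface for CD4+ T cells. The invariant chain, encoded by Cd74, occupies the groove of a newly made heterodimer and takes it to the endosome, where proteases trim it to a short fragment. H2-DM removes that fragment and favours tightly bound peptides. CIITA is the co-activator on which transcription of these genes largely depends, and it acts through proteins already bound to short promoter elements called the X and Y boxes. In obese fat, macrophages are among the cells that present antigen in this way. C57BL/6 mice have the H2b haplotype, which makes no Eα chain, so the Eβ chain encoded by H2-Eb1 lacks its usual partner in these cells.

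The promoter elements are shown first, for the 4 genes in which the letters of both were found. RefSeq promoter windows of 300 bases, with 250 before the transcription start and 50 after it (GRCm38.p6), were at hand for 5 of the 8 genes, H2-DMa with 2 windows. The letters searched on both strands were GATGATG and TGACGTCA, which lie in the X2 part of the X box, and GATTGG, which lies in the Y box as an inverted CCAAT. They were chosen after the windows had been read. The stretches below give the X2 letters and the Y letters in capitals, 5′ to 3′ on the strand of the gene, from -120 to -21 relative to the start.
H2-Aa (chr17:34287844-34287943, minus strand): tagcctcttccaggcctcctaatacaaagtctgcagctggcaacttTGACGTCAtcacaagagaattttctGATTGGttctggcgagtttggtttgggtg
H2-Eb1 (chr17:34305747-34305846, plus strand): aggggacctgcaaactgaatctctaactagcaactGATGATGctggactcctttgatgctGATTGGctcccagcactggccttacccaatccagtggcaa
H2-DMb2 (chr17:34145129-34145228, plus strand): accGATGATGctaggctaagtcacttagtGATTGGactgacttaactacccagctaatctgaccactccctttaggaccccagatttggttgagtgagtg
For H2-DMb1 only the 30 bases around the X2 letters are given (chr17:34153097-34153126, plus strand), since GENCODE M21 places a transcribed untranslated region there.
H2-DMb1: gtaactGATGATGctaggctgattcactca

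In each of these 4 genes the X2 letters were followed by GATTGG on the same strand. The gap between them was 17 bases in H2-Aa, 18 in H2-Eb1 and 19 in both H2-DMb1 and H2-DMb2. An X2 letter group with GATTGG within the next 40 bases was present in 0.103% of the 32851 RefSeq windows of this length, whereas GATTGG alone was in 16.1%, GATGATG in 3.48% and TGACGTCA in 1.79%. Neither window of H2-DMa held the pair. The cores of the hypoxia response element bound by HIF-1, ACGTG and GCGTG, were in 19.6% and 32.4% of all windows and in none of the 6 windows of these genes. Since the letters were taken from these windows, the share over all windows is a description and tests nothing about the 4 genes. These matches describe letters in a window and were not measured as binding sites.

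Cd74, H2-Aa, H2-Ab1 and H2-Eb1 were among the most abundant transcripts of both libraries, whereas the H2-DM genes and Ciita were not. Expression was given as FPKM, the number of fragments relative to transcript length and to all mapped fragments, a scale on which levels of different genes can be compared. The 8 genes summed to 34681 FPKM in the WT library and 33542 FPKM in the KO library, which was 5.92% of all FPKM in WT and 5.90% in KO. Cd74 and the 3 chain genes H2-Aa, H2-Ab1 and H2-Eb1 made up 98.5% of that sum in WT and 98.7% in KO.

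**Figure D1:**
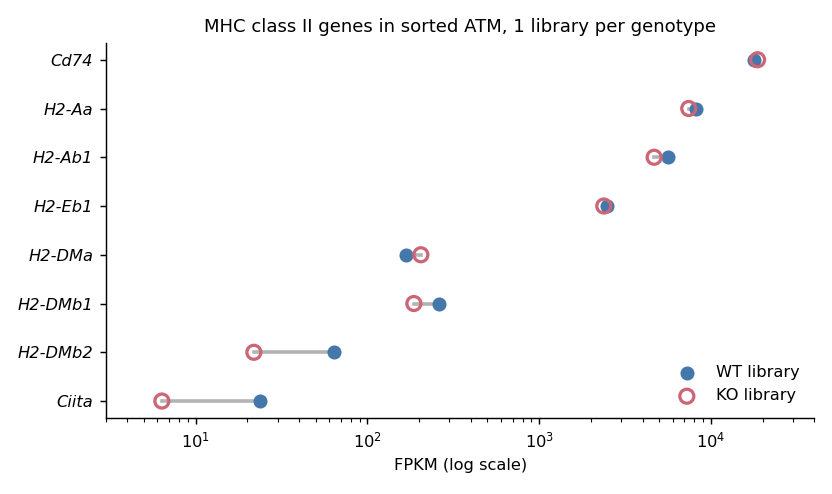
FPKM of the 8 MHC class II genes on a log axis, with a filled point for the WT library and an open point for the KO library, each a single value with no error. The upper 4 genes lie above 2000 FPKM in both libraries with points that nearly coincide, and the points of H2-DMb2 and Ciita lie farthest apart.

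A difference between the libraries was expressed as log2(FPKM + 1), KO minus WT, and a gene was counted past 3-fold at 1.585 on that scale. Of the 8 genes, 1 was past 3-fold lower in KO, namely Ciita, and 0 were past 3-fold higher. Over the 10297 genes with at least 1 FPKM in a library, 13.7% were past 3-fold lower and 13.6% past 3-fold higher. The median difference of the 8 genes was -0.20, against 0.03 over all genes compared. On this scale 6 of the 8 were below 0, as were 5017 of the 10297.

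Differences were much smaller among abundant genes than among scarce ones in these libraries. The middle 95% of differences lay between -1.35 and 0.94 for the 95 genes at a mean of 1000 FPKM or more, between -1.36 and 1.03 for the 653 genes at 100 to 1000, between -2.21 and 1.91 for the 2378 genes at 20 to 100, and between -3.75 and 3.46 for the 1861 genes at 10 to 20. The share past 3-fold lower in KO was 2.11%, 1.38%, 5.72% and 10.4% at these levels. Each of the 8 genes lay inside the middle 95% at its own level. For the 4 genes above 1000 FPKM the differences were between -0.26 and 0.06.

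**Figure D2:**
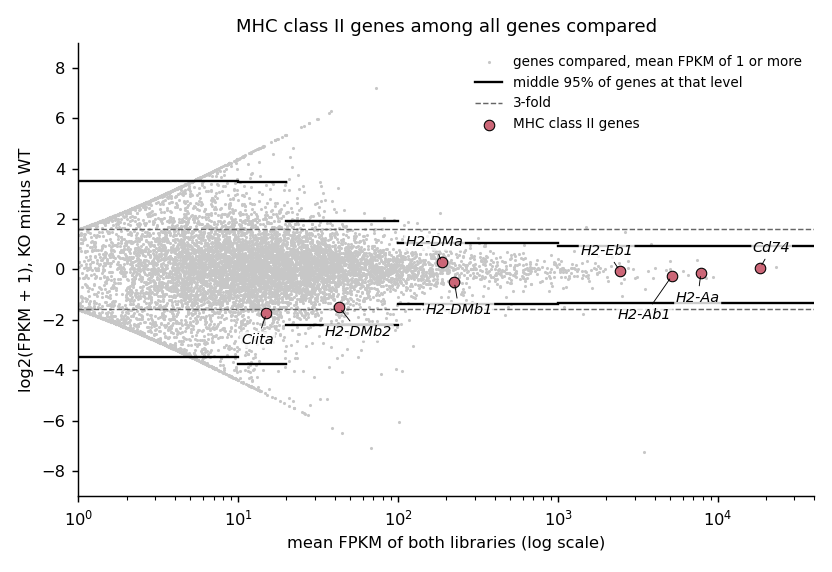
Difference between the libraries in log2(FPKM + 1), KO minus WT, against the mean FPKM of both libraries on a log axis, for each gene compared with a mean of at least 1 FPKM (grey) and the 8 MHC class II genes (red). Black lines bound the middle 95% of genes at each level and dashed lines mark 3-fold, and each of the 8 genes lies between the black lines at its level, with Ciita below the lower dashed line.

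Cd74 (ENSMUSG00000024610, GRCm38 chromosome 18, 60803848 to 60812652, plus strand), the invariant chain, was at 17891 FPKM in WT against 18661 in KO. It was the gene of rank 2 in both libraries. The difference was 0.06 in the scaling of the authors and -0.16 when the libraries were scaled to the same median over macrophage markers. That scaling lowers every KO value by the same factor, -0.22 on the log2 scale, and the factor is the ratio of 1 gene, Csf1r, which was the median marker in both libraries. A difference as small as that of Cd74 therefore has no direction apart from the scaling chosen.

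The peptide-presenting chains are encoded side by side on chromosome 17. H2-Aa (ENSMUSG00000036594, 34282744 to 34287823, minus strand), which encodes the α chain of I-A, was at 8186 FPKM in WT against 7420 in KO. H2-Ab1 (ENSMUSG00000073421, 34257689 to 34269419, plus strand), which encodes its β chain, was at 5600 FPKM in WT against 4666 in KO. The differences were -0.14 and -0.26. Both chains were thus slightly lower in the KO library, by amounts well within the range of genes at that level. H2-Eb1 (ENSMUSG00000060586, 34305867 to 34316674, plus strand), which encodes the β chain of I-E, was at 2485 FPKM in WT against 2377 in KO, a difference of -0.06. It was expressed although its α partner is not made in this haplotype. The α partner itself was not analysed here.

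The levels of the chains were also compared within each library. H2-Aa exceeded H2-Ab1 by 1.46 times in WT and by 1.59 times in KO. H2-Aa exceeded H2-Eb1 by 3.29 times in WT and by 3.12 times in KO. Cd74 was at 1.10 times the sum of the 3 chain genes in WT and at 1.29 times in KO. The order Cd74, H2-Aa, H2-Ab1, H2-Eb1 was the same in both libraries. Whether neighbours in this order differ beyond the spread of replicates could not be tested with 1 library each.

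H2-DM, the peptide editor, is encoded by H2-DMa for the α chain and by the neighbouring copies H2-DMb1 and H2-DMb2 for the β chain. All 3 genes were far below the chains they serve, with H2-Aa at 48.5 times the level of H2-DMa in WT and 36.2 times in KO. H2-DMa (ENSMUSG00000037649, chromosome 17, 34119541 to 34139101, plus strand) was at 169 FPKM in WT against 205 in KO, a difference of 0.28. H2-DMb1 (ENSMUSG00000079547, 34153072 to 34160230, plus strand) was at 262 FPKM in WT against 186 in KO, a difference of -0.49. The order of these 2 genes was therefore turned around between the libraries.

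H2-DMb2 (ENSMUSG00000037548, 34143307 to 34151555, plus strand) was at 63.96 FPKM in WT against 21.8 in KO, a difference of -1.51. This was just short of 3-fold, and the scaling to the macrophage marker median, set by Csf1r, put it past 3-fold at -1.72. In FPKM the WT library was 2.93 times higher, with a 95% interval of 2.49 to 3.45 for counting error alone, based on about 501 WT and 214 KO fragments. H2-DMb1 and H2-DMb2 together were at 325 FPKM in WT against 208 in KO. H2-DMa was at 0.519 times that sum in WT and at 0.983 times in KO, so the α and β transcripts of H2-DM were nearer to equal in the KO library.

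The values of H2-DMb1 and H2-DMb2 are uncertain as separate values, since the genes are close copies. Over the 783 coding bases of GENCODE M21, 751 were identical (95.9%), and the longest identical run was 221 bases. Of the 50-base words in the coding sequence of H2-DMb1, 48.1% were also present in H2-DMb2. How shared reads were divided is not given in the sources used here. The 30 coding bases in which the genes differ most, with the 10 differing bases in capitals, are printed to show where reads can tell them apart.
H2-DMb1 (chr17:34155582-34155611, plus strand): ctgtAtCCatGggcCgaaaATTtttcaaGG
H2-DMb2 (chr17:34147800-34147829, plus strand): ctgtCtAGatTggcTgaaaTAAtttcaaAT
These lie at coding bases 205 to 234 of both genes. When the FPKM of both copies was summed, the difference was -0.64.

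Ciita (ENSMUSG00000022504, chromosome 16, 10480059 to 10528418, plus strand), the transactivator, was the scarcest of the 8 genes in both libraries, at 23.6 FPKM in WT against 6.36 in KO. The difference was -1.74, which made it the only member past 3-fold. In FPKM the WT library was 3.71 times higher, with a 95% interval of 3.16 to 4.39 for counting error alone, based on about 589 WT and 198 KO fragments. At a mean of 10 to 20 FPKM, however, 10.4% of genes were past 3-fold lower in KO and 10.2% past 3-fold higher, so a difference of this size was common at this level. Cd74 stood at 757 times the level of Ciita in WT and at 2932 times in KO. Ciita is transcribed from several promoters that are used in different cell types, and the values do not separate them.

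The differences in Ciita and in the genes it serves were therefore of unequal size in these libraries. Ciita was at 0.269 times its WT level in KO, whereas Cd74, H2-Aa, H2-Ab1 and H2-Eb1 were at 1.04, 0.906, 0.833 and 0.956 times theirs. The H2-DM genes lay between 0.341 times for H2-DMb2 and 1.21 times for H2-DMa.

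The remaining class II genes were scarce, and the 2 that could be compared, H2-Oa and H2-Ob, lay at -3.04 and 3.84. Their median of 0.40 rests on which of them passes a filter and was 3.84 at a mean of at least 5 FPKM and 0.00 with no filter. H2-Oa and H2-Ob encode H2-DO, a heterodimer that restrains H2-DM, and their values differed in opposite directions. Both lie at a mean of 1 to 10 FPKM, where 22.4% of genes were past 3-fold lower and 23.2% past 3-fold higher in KO. H2-Oa was at 7.19 FPKM in WT and listed at 0 in KO, and H2-Ob was listed at 0 in the WT library but at 13.4 FPKM in the KO library. H2-Eb2 was listed at 0 in both. A value of 0 can be a failed estimate in a table of this kind, and 3 fragments of a transcript of 2000 bases would correspond to 0.261 FPKM in WT against 0.208 in KO.

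Proteins that bind class II promoters were examined because CIITA acts through them. RFX, of which Rfx5, Rfxap and Rfxank encode the subunits, binds the X box, CREB1 binds X2, and NF-Y, encoded by Nfya, Nfyb and Nfyc, binds the Y box. Of these 7 genes 3 were past 3-fold higher in KO and 0 past 3-fold lower, with a median difference of 0.69. That median was 0.21 with 1 FPKM required in both libraries and 0.28 at a mean of at least 5 FPKM. Rfxap was listed at 0 in the WT library but at 10.1 FPKM in the KO library. Rfxank was at 0.589 FPKM in WT against 6.92 in KO, and Nfyb at 0.332 FPKM in WT against 6.11 in KO. These are low values, and at a mean of 1 to 10 FPKM 23.2% of all genes were past 3-fold higher in KO. The more abundant Nfya was at 39.4 FPKM in WT against 28.3 in KO, Nfyc at 11.9 FPKM in WT against 19.8 in KO, and Creb1 at 5.33 FPKM in WT against 4.83 in KO.

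Interferon-γ is the classical inducer of Ciita in macrophages, through its receptor, JAK kinases and the factor IRF1. Of the 6 genes of this route that could be compared, 0 were past 3-fold in either direction, and their median difference was -0.23. Irf1 was at 114 FPKM in WT against 92.2 in KO, Ifngr1 at 74.2 FPKM in WT against 66.8 in KO, and Jak1 at 64.3 FPKM in WT against 67.2 in KO. Ifngr2, the signalling chain of the receptor, was at 34.6 FPKM in WT against 14.6 in KO. Socs1, an inhibitor of the route, was under 1 FPKM in both libraries.

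Several of the endosomal enzymes that cut the invariant chain and prepare peptides were abundant in both libraries. Of the 9 that could be compared 0 were past 3-fold, and their median difference was -0.07. Ctsb was at 1632 FPKM in WT against 1718 in KO, and Lgmn, an asparaginyl endopeptidase, at 734 FPKM in WT against 698 in KO. Ctsd was at 1347 FPKM in WT against 808 in KO. Ctss, the protease known for the last cuts of the invariant chain in most antigen-presenting cells, was at 721 FPKM in WT against 517 in KO, a difference of -0.48. Ctse was listed at 0 in both.

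Surface class II is removed by the ubiquitin ligase MARCH1, which CD83 opposes. Cd83 was at 472 FPKM in WT against 361 in KO. Marchf1 was at 8.17 FPKM in WT against 17.4 in KO, and Marchf8, a related ligase, was at 4.41 FPKM in WT against 6.10 in KO. None of these 3 was past 3-fold, and their median difference was 0.39. CD74 also serves at the surface as a receptor for the cytokine MIF. Mif was at 109 FPKM in WT against 199.7 in KO, a difference of 0.87. Ddt, a homologue of MIF, was at 9.60 FPKM in WT against 13.2 in KO. The co-receptors Cd44 and Cxcr4 were at 191 and 426 FPKM in WT and at 181 and 424 FPKM in KO. The median of these 4 genes was 0.21, or -0.01 under the scaling to the macrophage marker median, whose shift of all KO values is about as large as this median.

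The class I presentation genes were set beside them as the nearest pathway. Of 11 genes compared 1 was past 3-fold lower and 1 past 3-fold higher in KO, with a median difference of -0.10. B2m, the light chain of class I, was at 6173 FPKM in WT against 5960 in KO, and H2-K1 at 895 FPKM in WT against 815 in KO. The chaperone Calr was at 627 FPKM in WT against 584 in KO, and Pdia3 at 101 FPKM in WT against 109 in KO. Erap1, a peptide trimming enzyme, was at 18.1 FPKM in WT against 2.69 in KO. Tapbpl, a peptide editor of class I, was at 2.84 FPKM in WT against 17.8 in KO. Erap1 and Tapbpl lie at a mean of 10 to 20 FPKM, where 10.4% of genes were past 3-fold lower and 10.2% past 3-fold higher in KO. The abundant genes of both pathways thus differed little between the libraries, and the genes past 3-fold were among the scarce ones. Whether the pathways differ from each other could not be tested with 1 library per genotype.

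**Figure D3:**
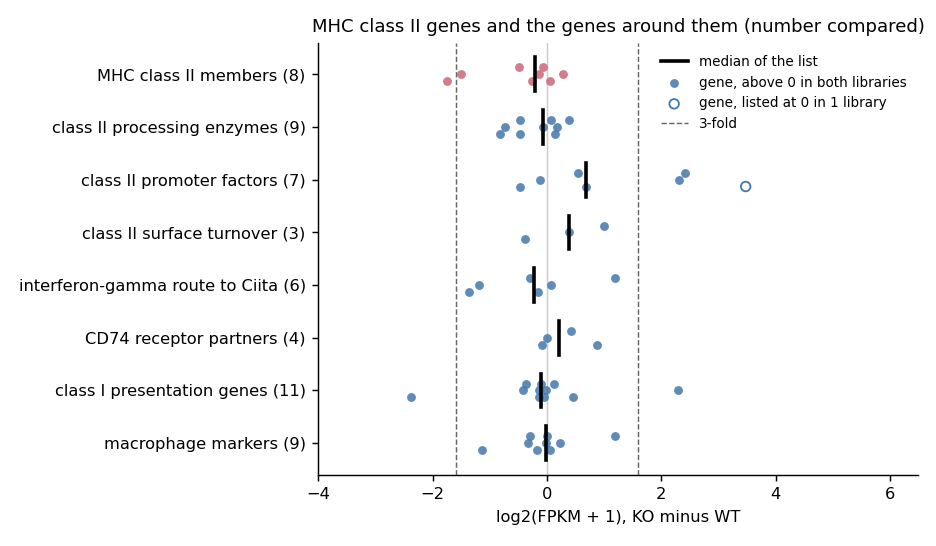
Difference between the libraries in log2(FPKM + 1), KO minus WT, for the MHC class II genes (red) and for related gene lists (blue), with 1 point per gene compared, open where a library lists it at 0, and a bar at each median. Dashed lines mark 3-fold, and the medians run from -0.23 for the interferon-γ route to 0.69 for the class II promoter factors.

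Other antigen-presenting cells carry the same class II genes, and in sorted bulk cells fewer cells of a type and less RNA per cell cannot be told apart. Macrophage markers were high, with 9 genes summing to 15077 FPKM in WT against 14394 in KO and a median difference of -0.02, led by C1qb at 4726 and 4663 FPKM and Lyz2 at 3936 and 4080 FPKM. That median was 0.02 when the libraries were scaled to the same sum and -0.24 under the scaling set by Csf1r, which was higher in KO while 6 of the 9 markers were lower. Fcgr1 was at 49.3 FPKM in WT against 21.9 in KO, a difference of -1.14, the lowest of the 9. Mertk was at 38.0 FPKM in WT against 88.1 in KO, a difference of 1.19, the highest of the 9. The 8 B cell markers summed to 2.75 FPKM in WT against 6.46 in KO, with a median difference of 0.59 over the 2 that could be compared, which other settings put between 0.00 and 2.84. Pax5, Blk, Fcer2a and Cr2 were listed at 0 in both. Cd79b was listed at 0 in the WT library but at 5.52 FPKM in the KO library, and Cd79a was at 2.4998 FPKM in WT against 0.222 in KO.

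The 10 conventional dendritic cell markers summed to 182 FPKM in WT against 178 in KO, most of it Cd209a at 122 FPKM in WT against 131 in KO, and their median difference was -0.65 over 6 genes. Batf3 was at 40.5 FPKM in WT against 28.7 in KO. Kmo was at 15.9 and 8.60 FPKM in WT and KO, Xcr1 at 1.65 and 0.0588 FPKM, Dpp4 at 1.27 and 0 FPKM and Ccr7 at 0.529 and 0 FPKM. Clec9a and Itgae were listed at 0 in both, Flt3 was at 0 in WT and 0.0362 FPKM in KO, and Zbtb46 was listed at 0 in the WT library but at 9.45 FPKM in the KO library. The 5 plasmacytoid dendritic cell markers summed to 99.6 FPKM in WT against 134 in KO, with a median of 0.79 over 3 genes that was 0.023 at a mean of at least 5 FPKM and 0.00 with no filter. Bst2 was at 58.8 and 102 FPKM in WT and KO, Tcf4 at 39.4 and 23.2 FPKM, and Siglech, the marker past 3-fold, at 1.42 and 8.31 FPKM, while Ly6d and Klk1 were listed at 0 in both.

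Monocyte markers differed in both directions, with a sum of 42.5 FPKM in WT against 27.9 in KO and a median of -1.50 over 5 genes. It was 0.65 under both stricter filters on low values, which leave out Ly6c2 and Chil3. Ccr2 was at 29.4 FPKM in WT against 9.78 in KO. Ly6c2 at 9.39 FPKM and Chil3 at 2.10 FPKM in WT were listed at 0 in KO, and Plac8 was at 1.58 FPKM in WT against 16.96 in KO. The 6 T cell markers summed to 5.35 FPKM in WT against 2.07 in KO, all of it Cd4, the single one compared, with a difference of -1.05 (the median over the 6 was 0.00 with no filter). The other 5 were listed at 0 in both. Neutrophil markers were higher in KO, with a sum of 143 FPKM in WT against 499 in KO over 6 genes and a median of 1.52, which was 2.32 and 2.45 with pseudocounts of 0.1 and 0.01. S100a8 was at 73.3 FPKM in WT against 182 in KO. S100a9 at 63.4 and 301 FPKM, Ngp at 0 and 2.61 FPKM and Mpo at 0 and 2.29 FPKM were past 3-fold. At a mean of 100 to 1000 FPKM, the level of S100a8 and S100a9, 0.613% of genes were past 3-fold higher in KO, and the differences of 1.304 and 2.23 for these genes lay above the middle 95%, unlike those of the 8 MHC class II genes. Ngp and Mpo lie at 1 to 10 FPKM, where 23.2% were past 3-fold higher. The part of these cells in the values of Ciita and H2-DMb2 was not tested.

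The libraries were of moderate depth. The WT library listed 9773 genes above 0 with a sum of 585823 FPKM, and the KO library 10124 genes with a sum of 568329 FPKM. Depth, read from the step between the lowest FPKM values, was close to 6400000 fragments for WT and 8000000 for KO. The targeted gene Hif1a was at 30.4 FPKM in WT against 21.0 in KO, a value for the whole gene that does not show the deleted exon. Apoe was at 94.3 FPKM in WT against 117 in KO, so both libraries held Apoe fragments, and the deleted part of that gene was not examined. Counting error was small beside the spread of differences among genes of equal level, since Cd74 had about 131053 WT and 170876 KO fragments and the scarcest member, Ciita, still had those given above. Fragments copied by PCR are not separate molecules, so the intervals cover the counting of fragments only. The number of molecules behind the fragments was not measured, and its part in the spread was not tested.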

How the data were processed

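Poly(A) RNA of sorted ATM was sequenced from 1 WT and 1 KO library. The authors deposited FPKM per Ensembl gene, and the mut column was read as KO, the only library that is not WT. The submitters' processing notes name CASAVA 1.8.2, TopHat2 2.0.9, Cufflinks 2.2.1 and mm9, whereas the annotation, filters and handling of shared reads are not given in the sources used here. FPKM is not a count, so no count model was used. Of 20749 rows, 401 full repeats were dropped and 18 further values of an identifier were summed. Symbols came from GENCODE M21 (20035 identifiers matched). Coordinates, lengths and coding sequences are GRCm38, and promoters are RefSeq GRCm38.p6.

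Differences were log2(FPKM + 1), KO minus WT, for genes with at least 1 FPKM in a library, with a 3-fold threshold. The pseudocount understates differences of low genes. Members, lists and promoter letters were chosen with earlier results of these data known. Named genes were the 8 members, and of each list those past 3-fold and up to 4 of the highest (2 for cell markers). Other markers and genes listed at 0 or near it (Socs1, Ctse) were named after their values had been seen.

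Fragments were estimated from genes of at least 1500 bases with 1 annotated transcript. FPKM times length less 200 bases recurred at 0.156 in WT and 0.125 in KO per kilobase, taken as 1 fragment, although 3 WT genes lay below it, so fragment numbers are estimates. Of genes with 10 or fewer fragments, 64.5% in WT and 76.2% in KO lay within 0.05 of a whole number. Member lengths were medians over coding transcripts. Ratio intervals were exact binomial. Calls and step were tested on simulated data. Python 3.11.15, pandas 2.3.3, scipy 1.17.1 and Biopython 1.88 were used.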

Additional observations from a re-analysis of the deposited data

How the results depend on the processing

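No paired analysis was possible because WT and KO have 1 library apiece, so that none could be left out. Settings were another pseudocount (0.1 or 0.01), other filters, a 2-fold threshold, 3 other scalings and other handling of repeated rows or of the H2-DMb copies. Filters, the threshold and the handling of repeated rows left the difference of each MHC class II gene as it was. Of 41 values from other pseudocounts, scalings and summed H2-DMb copies, 41 stayed within 1.5-fold of the reported value. For the pseudocounts and scalings this outcome was fixed beforehand. The scalings multiplied KO values by 1.031, 1.01 or 0.856, and no member lay below 6.36 FPKM. Ciita lay between -1.93 and -1.70 and the median of the 8 genes between -0.43 and -0.14. The number of the 8 past the threshold and lower was 2, with H2-DMb2 added, both at 2-fold and when the libraries were scaled to the same median over macrophage markers. That scaling moved the median of all genes compared to -0.18 and the difference of Cd74 to -0.16. Genes lower and higher over the whole table numbered 1413 and 1402, against 447 and 429 with 1 FPKM required in both libraries and 646 and 598 at a mean of at least 5 FPKM and 2314 and 2380 at 2-fold.

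Medians of short lists moved with settings that change which genes enter or how zeros count. B cell markers were at 1.40 and 2.84 and neutrophil markers at 2.32 and 2.45 with pseudocounts of 0.1 and 0.01. With no filter, B cell, T cell and plasmacytoid dendritic cell markers were at 0.00. Monocyte markers were at 0.65 under both stricter filters. At a mean of at least 5 FPKM, plasmacytoid dendritic cell markers were at 0.023 and the other class II genes at 3.84.

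The spread among genes of equal level, with 1 library per genotype, limits all 8 genes.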
